A study of Mus musculus with 26 samples.

Results

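The response of cells carrying a kinase-dead insulin receptor to 15 min of insulin was described from 6 of the 26 RNA-seq libraries of the series. They are the 3 libraries of K1030R cells given 100 nM insulin and the 3 of the same line left unstimulated, and all 15402 genes with a CPM (read count scaled to library size) above 0.5 in at least 4 of the 26 libraries were tested, with no minimum fold change. K1030R is an insulin receptor (IR) with a lysine-to-arginine change at the ATP-binding lysine, which removes its tyrosine kinase activity. All lines came from brown preadipocytes of newborn IR-lox/IGF1R-lox mice that were immortalised with SV40 T-antigen, and lost IR and the IGF1 receptor through Cre adenovirus (DKO cells). FLAG-tagged receptors were then put back with retrovirus and hygromycin selection: human IR (IR cells), K1030R, IR without its C-terminal tail (∆CT) or IR with the intracellular domain ending after the juxtamembrane region (JMO). Each receptor was studied as 1 selected line, and all cells were starved of serum for 6 h before insulin or none. The DKO libraries were all unstimulated, so an effect of adding insulin that does not pass through the re-expressed receptor cannot be told apart from one that does.

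Insulin binding to the receptor activates its tyrosine kinase, which phosphorylates substrate proteins and turns on the ERK and AKT kinase cascades. Within minutes these cascades act on transcription factors already present in the cell, and immediate early genes such as the FOS, JUN, EGR and DUSP families are transcribed without new protein synthesis. Many of these genes also react to serum, stress and mechanical cues, and their mRNAs are short-lived.

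Promoters of 5 genes that rose in K1030R cells are shown because they hold short elements known to be bound by factors of the early response. Each line gives the 250 bases before the start site of the RefSeq transcript, 5′ to 3′ on the strand of the gene, from GRCm38.p6. Capitals mark matches, on either strand, to the cAMP response element (TGACGTCA) in Plk2, Dusp1 and Ppp1r15a, to the CArG box bound by serum response factor in Dnm3os, and to the TEAD element (CATTCC) in Ccn1.
Plk2: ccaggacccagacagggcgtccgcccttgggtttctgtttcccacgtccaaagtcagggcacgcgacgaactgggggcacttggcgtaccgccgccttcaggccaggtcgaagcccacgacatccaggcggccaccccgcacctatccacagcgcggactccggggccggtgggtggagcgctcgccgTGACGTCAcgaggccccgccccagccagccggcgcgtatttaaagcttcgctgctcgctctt
Dusp1: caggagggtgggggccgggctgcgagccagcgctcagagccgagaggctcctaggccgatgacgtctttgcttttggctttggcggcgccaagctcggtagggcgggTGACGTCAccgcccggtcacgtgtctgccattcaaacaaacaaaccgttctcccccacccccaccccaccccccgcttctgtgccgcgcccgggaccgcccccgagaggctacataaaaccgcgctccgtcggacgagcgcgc
Ppp1r15a: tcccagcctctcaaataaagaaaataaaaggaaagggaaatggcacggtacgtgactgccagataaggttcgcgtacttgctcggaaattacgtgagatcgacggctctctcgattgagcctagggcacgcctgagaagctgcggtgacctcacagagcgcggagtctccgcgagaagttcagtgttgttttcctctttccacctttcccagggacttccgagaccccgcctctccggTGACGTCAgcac
Dnm3os: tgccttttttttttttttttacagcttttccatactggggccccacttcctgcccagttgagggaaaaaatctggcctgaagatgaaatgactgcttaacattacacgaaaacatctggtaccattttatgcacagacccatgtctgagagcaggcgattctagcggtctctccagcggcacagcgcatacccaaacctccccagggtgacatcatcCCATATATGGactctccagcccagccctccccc
Ccn1: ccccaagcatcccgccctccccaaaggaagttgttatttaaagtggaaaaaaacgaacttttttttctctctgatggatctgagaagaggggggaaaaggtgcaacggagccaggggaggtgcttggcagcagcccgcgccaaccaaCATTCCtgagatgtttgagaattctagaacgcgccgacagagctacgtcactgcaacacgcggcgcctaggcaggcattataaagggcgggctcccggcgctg
The windows lie at chr13:110394794-110395043, plus strand (Plk2), chr17:26508473-26508722, minus strand (Dusp1), chr7:45526269-45526518, minus strand (Ppp1r15a), chr1:162217373-162217622, plus strand (Dnm3os) and chr3:145649986-145650235, minus strand (Ccn1). The cAMP response element started 62 bases before the start site of Plk2, 143 before that of Dusp1 and 12 before that of Ppp1r15a. The CArG box of Dnm3os started 33 bases, and the TEAD element of Ccn1 103 bases, before the start site.

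Windows from 250 bases before to 50 bases after each start site were searched for these elements and for the AP-1 (TGANTCA), EGR (GCGNGGGCG) and forkhead (GTAAACA) elements. The motifs were chosen with the gene calls known, and a match is a description of the letters only. RefSeq windows were found for 15 of the 17 genes that rose in K1030R cells, 20 windows in all. The cAMP response element was in 3 of these 20 windows (15%) and in 1.79% of all 32851 mouse windows. It was also in 1 of 6 windows (16.7%) of the genes that fell. The CArG box was in 1 (5%, against 1.63% of all windows), the TEAD element in 2 (10%, against 14.7%) and the AP-1 element in 2 (10%, against 7.81%). EGR and forkhead elements were in 0 of the 20 windows, with 5.55% and 3.65% of all windows holding them. Among the genes that rose strongly in IR and ∆CT cells but were not called in K1030R cells, 21 windows of 16 genes were found. The CArG box was in 6 of them (28.6%), 4 of which are alternative starts of Egr2, the EGR element in 5 (23.8%) and the cAMP response element in 2 (9.52%).

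Total counts were 17228982 to 19883841 in the basal and 19906103 to 21500122 in the insulin libraries of K1030R cells, so the insulin libraries were all deeper, by a small margin at the nearest pair. The share of counts from mitochondrial genes was 3.53% to 3.62% in the basal and 3.57% to 3.80% in the insulin libraries. The labelled cell type was checked against marker lists. Summed preadipocyte and fibroblast markers were at 8234 to 8763 CPM without and 8429 to 8524 CPM with insulin, carried mainly by Col1a1 (mean 6099 CPM without insulin) and Col3a1 (1586 CPM), with Pdgfra at 168 CPM and Dlk1, Lum and Dcn below 1 CPM. The brown lineage genes summed to 224 to 230 and 226 to 232 CPM, from Zic1, Zfp516 and Ebf3 (121, 75.3 and 30.1 CPM), while Ebf2, Prdm16, Lhx8, Epsti1 and Bmp7 were below 1 CPM and Myf5 at 0. Markers of other cell types were low but not all absent. Mature adipocyte genes summed to 34.5 to 38.5 CPM without and 32.4 to 36.4 CPM with insulin, nearly all from Lpl (35.4 CPM), with Ucp1, Cidec and Lep at 0 counts in all 6 libraries. Macrophage genes summed to 17.5 to 19.3 and 17.7 to 20 CPM, led by Cd14 (9.92 CPM) and Lyz2 (5.19 CPM), with Adgre1 at 0. Endothelial genes summed to 18.3 to 22.2 and 15.0 to 20.2 CPM, led by Pecam1 (11.7 CPM) and Flt1 (7.75 CPM), with Cldn5 at 0. Muscle genes summed to 2.57 to 3.52 and 2.49 to 3.60 CPM, mostly Des (2.24 CPM), with Myod1, Myog and Pax7 at 0, and epithelial genes to 0.296 to 0.310 and 0.244 to 0.514 CPM, with Epcam, Krt5 and Krt14 at 0. The part of these markers in the results was not tested. Insr was at 76.9, 69.8 and 66.7 CPM in the basal and 69.3, 65.5 and 69.8 CPM in the insulin libraries, against a mean of 23.8 CPM in DKO cells. These reads were counted on mouse transcripts although the transgene is human. Igf1r was at 35.2, 32.8 and 32.8 CPM without and 34.1, 33.8 and 31.2 CPM with insulin, against a mean of 27.1 CPM in DKO cells. The paper reports no IGF1R mRNA by qPCR and no protein in DKO cells, so reads near the DKO level do not show an expressed receptor. The labels do not say whether libraries of a group came from separate cultures, so p-values measure only the spread between these samples, which may be technical.

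Insulin changed 24 genes in K1030R cells at an adjusted p below 0.05, by the quasi-likelihood test of edgeR with p-values adjusted after Benjamini and Hochberg. Of the 15402 genes tested, 17 (0.11%) were higher and 7 (0.0454%) were lower. The genes that rose included the MAP kinase phosphatase Dusp1, the matrix protein Ccn1, the transcription factor Egr1 and the kinases Plk2 and Sgk1, by 1.37- to 1.59-fold. Those that fell were mostly poorly annotated transcripts and zinc finger genes, with the ubiquitin ligase Mylip. At an unadjusted p below 0.05, 494 genes were higher and 443 were lower, together 6.08% of those tested. No gene changed by more than 1.5-fold in a test against that fold: glmTreat called 0 genes (59 at an unadjusted p below 0.05) and limma TREAT called 0 (25 at an unadjusted p below 0.05). For all 24 called genes the 3 insulin libraries lay on one side of the 3 basal libraries. Among all genes tested, the insulin libraries were all above the basal ones for 977 (6.34%) and all below for 944 (6.13%).

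**Figure D1:**
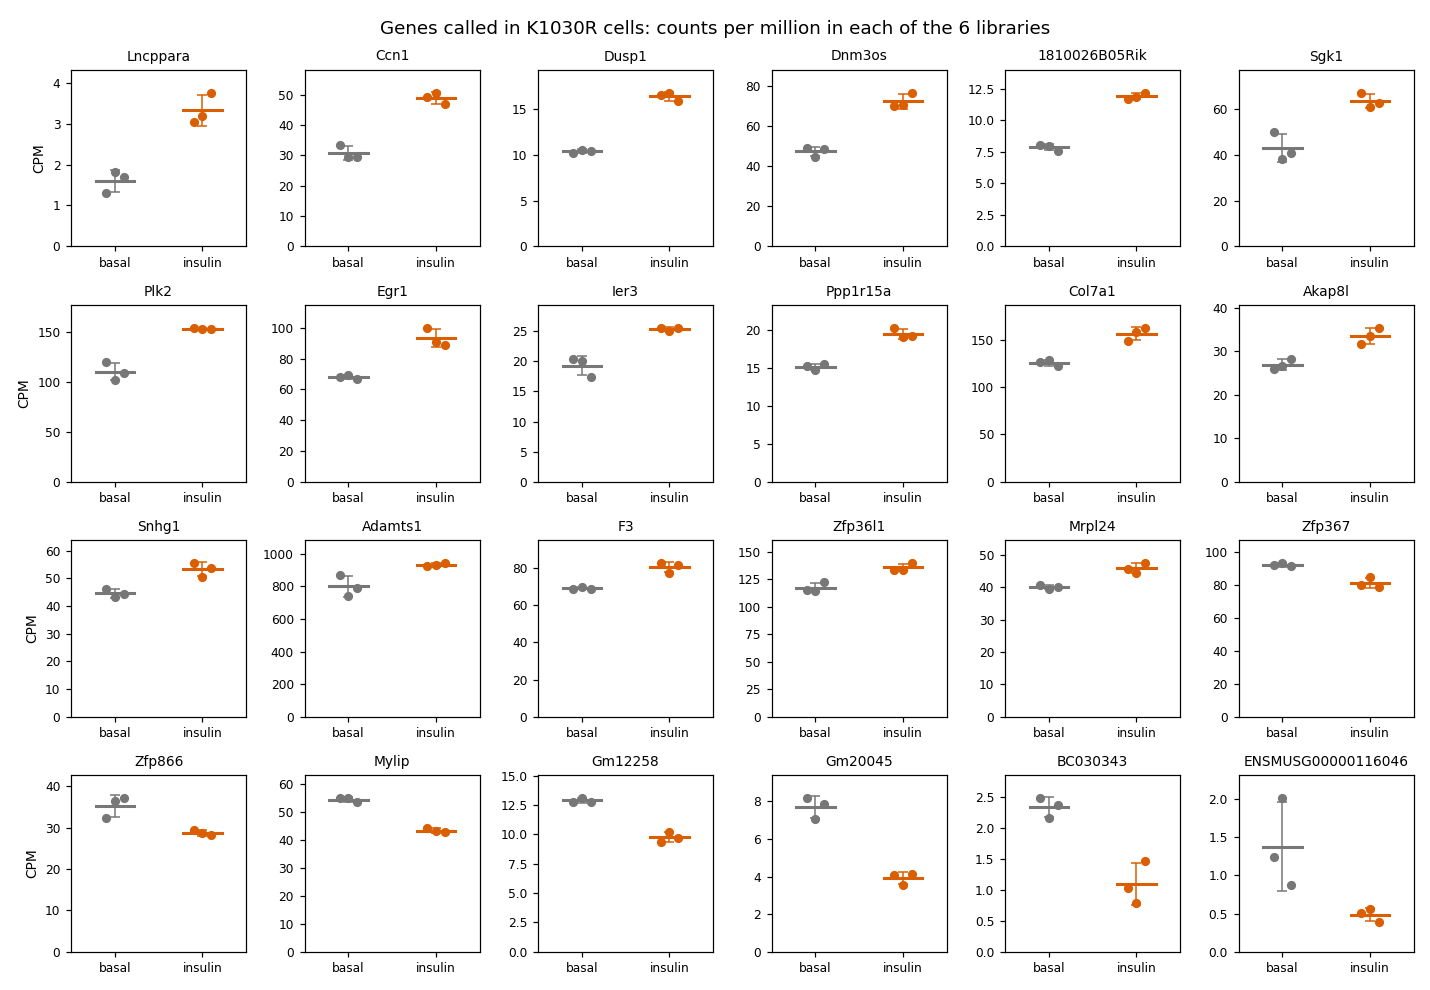
CPM of each of the 24 called genes (vertical axis, linear from 0) in the 3 basal (grey) and 3 insulin (orange) libraries of K1030R cells. Points are libraries, the thick line is the mean and the thin bar is 1 SD. Basal and insulin points do not overlap in any panel, and the step is small in most of them, for example from about 69 to about 81 CPM for F3.

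The calls rested on different numbers of libraries. When each of the 6 K1030R libraries was left out in turn, 7 genes were called in all 6 fits: Dnm3os, Plk2, Dusp1, Ccn1, Egr1, Gm20045 and Mylip. Another 7 were called in 3 to 5 fits (Zfp36l1, Lncppara, 1810026B05Rik, F3, Ppp1r15a, Ier3 and Col7a1) and 10 in 2 or fewer. The number of called genes was 17 without basal replicate 1, 12 without basal replicate 2, 11 without basal replicate 3, 13 without insulin replicate 1, 19 without insulin replicate 2 and 10 without insulin replicate 3.

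Among genes that restrain or relay kinase signalling, Dusp1, which dephosphorylates ERK, p38 and JNK, was at 10.2, 10.6 and 10.5 CPM in the basal and 16.6, 16.8 and 15.8 CPM in the insulin libraries. The groups did not overlap and each was tight. The rise was 1.57-fold, a log2 fold change of 0.65 ± 0.081 (SE) with an adjusted p of 9.52e-06 by edgeR's quasi-likelihood test. Exons of Dusp1 overlap those of Ergic1 on the opposite strand, and use of strand in counting is not given in the sources used here. Plk2, a polo-like kinase first known as a serum-induced gene, was at 120, 102 and 109 CPM without and 154, 153 and 153 CPM with insulin. The 3 insulin libraries were nearly equal and all above the basal ones. The log2 fold change was 0.48 ± 0.05 (adjusted p = 3.07e-06, edgeR). Sgk1, a serum- and glucocorticoid-induced kinase, was at 50.1, 38.4 and 41.0 CPM without and 67.1, 60.9 and 62.5 CPM with insulin. Basal replicate 1 and insulin replicate 1 were each the highest of their group. The log2 fold change of Sgk1 was 0.56 (adjusted p = 0.0143), and it was called in 2 of the 6 fits that left out a K1030R library. Akap8l, a nuclear protein related to the kinase A anchor AKAP8, rose from 25.9, 26.6 and 28.3 to 31.6, 33.6 and 35.4 CPM (adjusted p = 0.0246), and was called in 1 of those 6 fits.

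Of the immediate early genes, Egr1, a zinc finger transcription factor, was at 68.2, 69.0 and 66.5 CPM in the basal and 100, 90.9 and 88.8 CPM in the insulin libraries. Insulin replicate 1 was the highest and no libraries overlapped. Egr1 rose by 0.46 ± 0.067 on the log2 scale (adjusted p = 0.0020, edgeR). Ier3, an early gene linked to cell survival under stress, was at 20.4, 20 and 17.5 CPM without and 25.6, 25.1 and 25.6 CPM with insulin. Basal replicate 3 was the lowest library. The log2 fold change of Ier3 was 0.40 (adjusted p = 0.00677), and without basal replicate 3, insulin replicate 1 or insulin replicate 3 it was not called.

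Among genes that act on mRNA decay and the stress response, Zfp36l1 encodes a protein that binds AU-rich elements and destabilises mRNAs. It was at 116, 114 and 122 CPM without and 134, 134 and 140 CPM with insulin, a log2 fold change of 0.21 (adjusted p = 0.00269, edgeR). The groups were separate, although the step was among the smallest of the 17. Ppp1r15a, also known as GADD34, directs protein phosphatase 1 to the initiation factor eIF2α. It rose from 15.2, 14.6 and 15.5 to 20.3, 19.1 and 19.2 CPM (log2 fold change 0.37, adjusted p = 0.00677). Zfp36l1 and Ppp1r15a were each called in 4 of the 6 fits that left out a K1030R library. Exons of Zfp36l1 overlap Gm26669, and those of Ppp1r15a overlap Tulp2, on the opposite strand.

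Secreted and matrix genes included Ccn1, a matricellular protein known as a target of YAP and TEAD. It was at 33.4, 29.3 and 29.6 CPM in the basal and 49.3, 50.7 and 47.0 CPM in the insulin libraries, and basal replicate 1 was the highest basal library. The log2 fold change was 0.67 ± 0.078 (1.59-fold, adjusted p = 3.52e-05, edgeR). Tissue factor, F3, which starts blood coagulation, was at 68.7, 70.0 and 69.0 CPM without and 82.9, 77.5 and 81.5 CPM with insulin (log2 fold change 0.22, adjusted p = 0.00571). Col7a1, the collagen of anchoring fibrils, went from 127, 129 and 122 to 149, 159 and 163 CPM (log2 fold change 0.32, adjusted p = 0.00703). Both genes were separate between groups in every library. Adamts1, a secreted metalloprotease, was the most abundant of the 17 in CPM. It was at 872, 741 and 788 CPM without and 923, 930 and 944 CPM with insulin, a log2 fold change of 0.22 (adjusted p = 0.0170). It was called in 1 of the 6 fits that left out a K1030R library, and basal replicate 1 lay closest to the insulin libraries.

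Long noncoding RNAs held the smallest p-value of the comparison. Dnm3os, the transcript that yields miR-199a and miR-214, lies antisense within Dnm3 (GRCm38, chr1:162217623-162225550, plus strand). It was at 49.1, 44.6 and 48.3 CPM in the basal and 70.1, 70.2 and 76.5 CPM in the insulin libraries, and rose by 0.61 ± 0.054 on the log2 scale (1.53-fold, adjusted p = 1.3e-08, edgeR). The groups were far apart relative to their spread, and no exons of Dnm3 overlap it. Lncppara, whose exons overlap the let-7b and let-7c-2 hairpins, had the largest rise of the 17. It was at 1.3, 1.81 and 1.71 CPM without and 3.03, 3.18 and 3.75 CPM with insulin, a log2 fold change of 1.04 ± 0.18 (adjusted p = 0.00359). Its counts were low, and it was not called without basal replicate 1 or without insulin replicate 3. The noncoding RNA 1810026B05Rik rose from 8.05, 8 and 7.61 to 11.7, 11.8 and 12.2 CPM (log2 fold change 0.60, adjusted p = 0.00359). Its exons overlap those of Chd2 on the same strand, so its value is uncertain. Snhg1, a host of small nucleolar RNAs, rose by 0.26 on the log2 scale (adjusted p = 0.0481), and the mitochondrial ribosomal protein gene Mrpl24 by 0.20 (adjusted p = 0.0498). Snhg1 was called in 1 of the 6 fits that left out a K1030R library. Mrpl24 was called in 0 of these 6 fits, and its exons overlap Rrnad1 on the opposite strand. Just outside the threshold stood Lrrc45, with an adjusted p of 0.0509.

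Of the 7 genes that fell, only Mylip and Gm20045 were called in every fit that left out a K1030R library. Mylip is a ubiquitin ligase that marks the LDL receptor for degradation. It was at 54.8, 54.9 and 53.4 CPM without and 44.2, 43.0 and 42.6 CPM with insulin. Both groups were tight and separate. Mylip fell by 0.33 on the log2 scale (SE 0.0495, adjusted p = 3.29e-04, edgeR). Gm20045, a long intergenic noncoding RNA on chromosome 1, was at 8.17, 7.05 and 7.87 CPM without and 4.06, 3.55 and 4.15 CPM with insulin. Every insulin library was near the midpoint between 0 and the basal level. Gm20045 fell by 0.97 on the log2 scale (SE 0.131, adjusted p = 3.52e-05). The zinc finger gene Zfp866 fell from 32.3, 36.4 and 37.2 to 29.5, 28.6 and 28.2 CPM (adjusted p = 0.0140), with exons that overlap those of Atp13a1 and Gm20422. Zfp367, another zinc finger gene, fell from 91.8, 93.2 and 91.1 to 79.9, 84.5 and 78.7 CPM (adjusted p = 0.0181). Exons of Zfp367 overlap Gm47513 on the opposite strand. Zfp866 and Zfp367 were each called in 2 or fewer of the 6 fits that left out a K1030R library. The same held for Gm12258 (log2 fold change -0.40, adjusted p = 0.0181), the noncoding RNA BC030343 (-1.09, adjusted p = 0.0161) and ENSMUSG00000116046 (-1.49, adjusted p = 0.0347), which has no symbol in the tables used. BC030343 and ENSMUSG00000116046 had at most 2.49 CPM in any K1030R library.

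To see which of these genes also responded with other receptors, the same model gave the insulin effect in IR and ∆CT cells, whose receptors keep the kinase domain, and in JMO cells, whose receptor has none. In IR cells 215 genes (1.4%) were called higher and 73 (0.474%) lower. In ∆CT cells 144 genes (0.935%), and in JMO cells 51 (0.331%), were called higher. Called lower were 11 genes in ∆CT and 5 in JMO cells. The ∆CT insulin group held 2 libraries, against 3 in each other group. Of the 17 genes that rose in K1030R cells, 14 were called higher in IR, 14 in ∆CT and 11 in JMO cells, and the same 11 were called in all 3 of these lines. All 17 had a log2 fold change above 0 in each line. Lncppara and Mrpl24 were called in K1030R cells and in 0 other lines. The counts for IR cells turned on single basal libraries: IR basal replicate 3 had a mitochondrial share of 3.71%, against 3.09% and 3.14% in the other 2 basal libraries and 3.69% to 3.85% in the insulin libraries. Without it 1063 genes were called in IR cells (436 higher, 627 lower), and without basal replicate 1 or 2 the total was 142 or 131. Of the 17 genes, 14 were called higher in IR cells without basal replicate 3 and 13 without either of the other basal libraries.

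The size of the response was then compared between lines by testing the difference of the insulin effects. K1030R and IR cells differed for 57 genes (0.37%), K1030R and ∆CT cells for 64 (0.416%), and K1030R and JMO cells for 4 (0.026%). Without IR basal replicate 3 the first count was 182. Among the 17 genes that rose in K1030R cells, 7 rose less than in IR cells: Egr1, Ccn1, Ier3, Dusp1, Dnm3os, Ppp1r15a and F3. Egr1 rose by 0.46 in K1030R and 2.81 in IR cells on the log2 scale, a difference of -2.36 (adjusted p = 3.66e-14, edgeR). For Ccn1 the difference was -1.94 (adjusted p = 4.49e-12), and for Dnm3os it was -0.85 (adjusted p = 1.03e-09). The same 7 genes rose less than in ∆CT cells. The 4 genes that differed from JMO cells were Dnm3os (-0.54), Egr1 (-0.70), Btg2 (-0.38) and Gm20045 (-0.97).

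For 10 of the 17 genes no difference from IR cells was called. Plk2 had log2 fold changes of 0.48 in K1030R, 0.45 in IR, 0.44 in ∆CT and 0.34 in JMO cells. The K1030R minus IR difference of Plk2 was 0.028, with a 95% interval of -0.118 to 0.174, and the K1030R minus ∆CT interval ran from -0.119 to 0.19. Adamts1 had 0.22, 0.20, 0.20 and 0.19 in the same order, with a K1030R minus IR interval of -0.0998 to 0.15. For both Plk2 and Adamts1 the K1030R minus IR limits were smaller in size than the rise in K1030R or IR cells. The upper limit of Adamts1 (0.15) was near its rise in IR cells (0.20). Neither interval shows an equal response. For Sgk1 the K1030R minus IR interval was -0.633 to -0.0395 (adjusted p = 0.578), and for Zfp36l1 it was -0.236 to -0.0304 (adjusted p = 0.516), both below 0 before adjustment. For Lncppara the interval was -0.0319 to 1, too wide to place the lines. A missed threshold does not show that the lines responded alike.

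**Figure D2:**
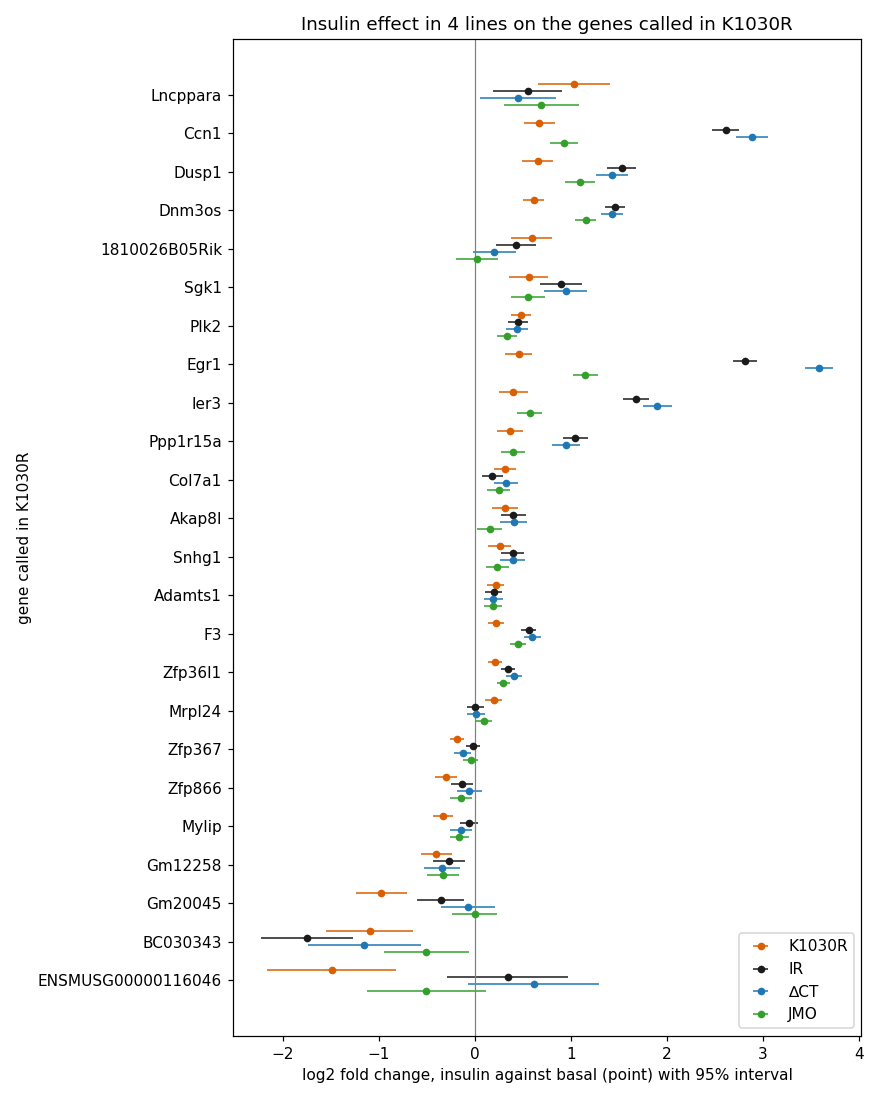
Log2 fold change with insulin (horizontal axis, point) and its 95% interval for the 24 genes called in K1030R cells (rows), in K1030R (orange), IR (black), ∆CT (blue) and JMO (green) cells. Egr1 and Ccn1 spread from 0.46 and 0.67 in K1030R to 3.58 and 2.89 in ∆CT cells, while the 4 points of Plk2 lie between 0.34 and 0.48.

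Genes that fell in K1030R cells were rarely called in the other lines. BC030343 was also called lower in IR (log2 fold change -1.75) and ∆CT cells (-1.15), and the other 6 were called lower in 0 other lines. Of the 7, however, 6 had a log2 fold change below 0 in IR, 6 in ∆CT and 7 in JMO cells. Gm12258 had -0.40 in K1030R, -0.27 in IR, -0.34 in ∆CT and -0.33 in JMO cells, so a missed call does not show a fall particular to K1030R cells. Gm20045 had -0.35 in IR, -0.07 in ∆CT and -0.0021 in JMO cells. Its difference was -0.90 from ∆CT (adjusted p = 0.0131, edgeR) and -0.97 from JMO cells (adjusted p = 0.0160). The difference from IR cells was -0.62 (adjusted p = 0.214), and -0.73 (adjusted p = 0.0334) without IR basal replicate 3. Mylip had -0.06 in IR, -0.14 in ∆CT and -0.16 in JMO cells, and none of its 3 differences passed the adjusted threshold in edgeR (K1030R minus IR -0.27, adjusted p = 0.074).

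The reverse view started from the genes that responded in IR and ∆CT cells. A list of 31 genes rose by more than 1.5-fold in both IR and ∆CT cells (glmTreat, adjusted p below 0.05). In K1030R cells 6 of the 31 were called higher and 0 lower, and 26 had a log2 fold change above 0. The median log2 fold change of the list was 0.18 in K1030R, 1.64 in IR, 1.66 in ∆CT and 0.36 in JMO cells, where the list fixed the direction in IR and ∆CT cells, and over all 15402 genes 50.3% were above 0 in K1030R cells. The 6 called genes were Ccn1, Dusp1, Dnm3os, Egr1, Ier3 and Ppp1r15a. Another 8 had a 95% interval above 0 without passing the adjusted threshold: Ier2, Rhob, Jun, Nfkbiz, Ptgs2, Gadd45g, Hes1 and Btg2. The insulin effect differed from that in IR cells for 30 of the 31 and from that in ∆CT cells for 29, a difference that the choice of the list favours, and from that in JMO cells for 3.

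Of the 12 strongest responders of IR cells, Egr1 and Ccn1 were called higher in K1030R cells, as described above, and the other 10 were not called. Fos, the AP-1 subunit with the largest log2 fold change in IR cells (4.41), was at 1.95, 2.62 and 1.97 CPM without and 3.03, 2.62 and 2.54 CPM with insulin in K1030R cells. The groups overlapped, and the log2 fold change of Fos was 0.31 with a 95% interval of -0.0591 to 0.683 (adjusted p = 0.903, edgeR). Ier2, a short-lived nuclear protein gene, was at 14.1, 13 and 11.4 CPM without and 19.3, 17.6 and 14.8 CPM with insulin. Its groups were separate but wide (log2 fold change 0.43, interval 0.15 to 0.706, adjusted p = 0.433), against 3.36 in IR cells. The EGR family was split, since Egr2 and Egr3 had log2 fold changes of -0.18 and -0.14 in K1030R cells, with intervals of -0.456 to 0.106 and -0.354 to 0.0679, against 3.02 and 2.55 in IR cells. Zfp36, which destabilises AU-rich mRNAs like Zfp36l1, had 0.08 (interval -0.0855 to 0.245), against 2.90 in IR cells. The synaptic immediate early gene Arc had -0.14, the nuclear receptor gene Nr4a1 -0.06, the antiproliferative gene Btg2 0.12, the noncoding RNA Carmn 0.33 and the AP-1 subunit gene Junb 0.04. Together with Egr1 (2.81) and Ccn1 (2.61), these were the 12 largest responders of IR cells, with 2.30 or more there.

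**Figure D3:**
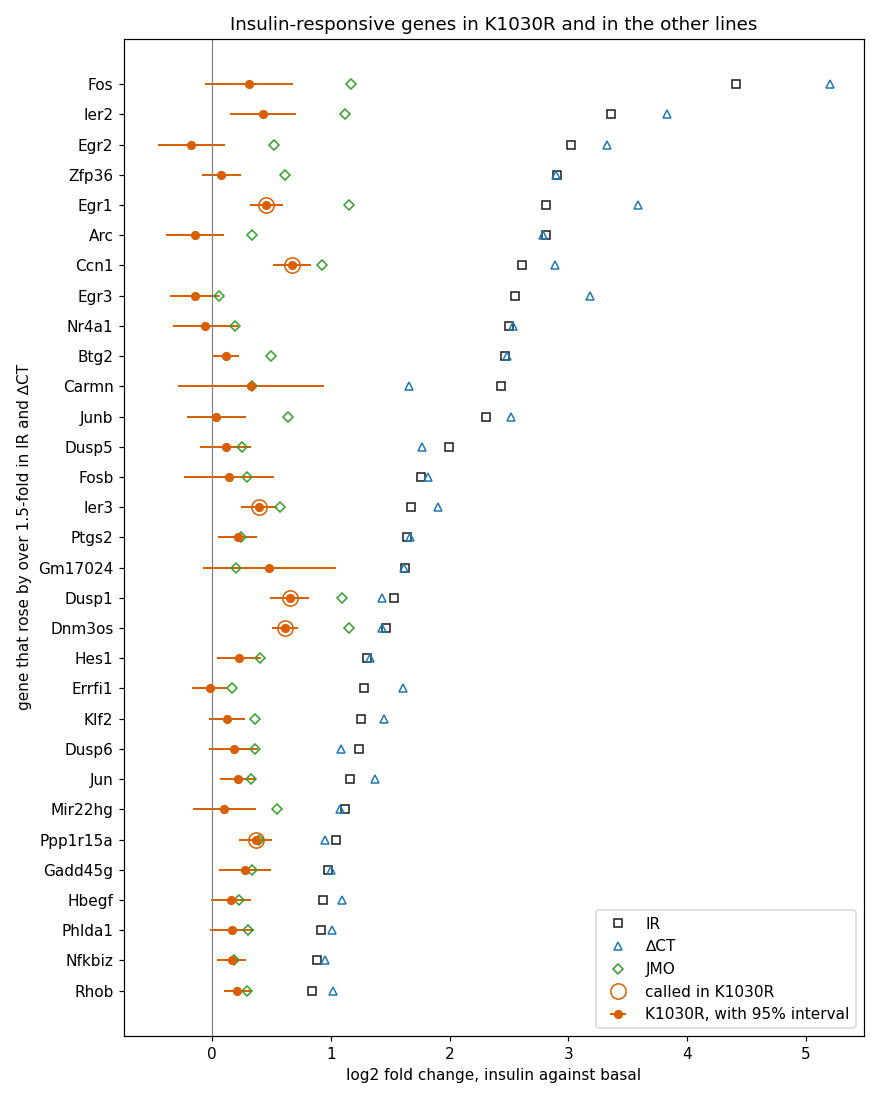
Log2 fold change with insulin (horizontal axis) for the 31 genes that rose by more than 1.5-fold in IR and ∆CT cells (rows, ordered by IR), in K1030R (orange, with 95% interval, circled where called), IR (squares), ∆CT (triangles) and JMO (diamonds) cells. K1030R points run from -0.18 to 0.67 and JMO points are mostly between K1030R and IR, while Fos reaches 4.41 in IR and 5.20 in ∆CT cells.

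Of the remaining genes of the list, Jun, the partner of FOS in AP-1, was at 47.2, 41.6 and 43.0 CPM without and 51.8, 47.7 and 53.3 CPM with insulin (log2 fold change 0.21, interval 0.0704 to 0.359, adjusted p = 0.458). Rhob, a small GTPase gene, was at 70.3, 68.2 and 65.3 CPM without and 76.2, 81.8 and 78.1 CPM with insulin. All insulin libraries of Jun and Rhob were above all basal ones, yet Rhob had an adjusted p of 0.152 (log2 fold change 0.21, interval 0.103 to 0.325). The prostaglandin synthase gene Ptgs2 had 0.22, the Notch-responsive repressor Hes1 0.23, the stress gene Gadd45g 0.27 and the NF-kB regulator Nfkbiz 0.17.

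The wider set of IR responses gave the same kind of count. Of the 215 genes called higher in IR cells, 173 (80.5%) had a log2 fold change above 0 in K1030R cells, with a median of 0.07, and 14 were called higher. Of the 73 called lower in IR cells, 53 (72.6%) were below 0 in K1030R cells, with a median of -0.022, and 1 was called lower. Without IR basal replicate 3 the shares were 67.7% of 436 and 55.5% of 627, with medians of 0.038 and -0.0061. Without basal replicate 1 they were 81.7% of 131 and 90.9% of 11 (medians 0.10 and -0.28), and without basal replicate 2 they were 80.5% of 118 and 100% of 13 (medians 0.11 and -0.073). Over all 15402 genes tested, 0.11% were called higher and 0.0454% lower in K1030R cells, and the share above 0 is given with the list above. The K1030R and IR comparisons share no libraries. Of the 38 genes called higher in IR, ∆CT and JMO cells alike, 36 were above 0 in K1030R cells, with a median of 0.18.

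**Figure D4:**
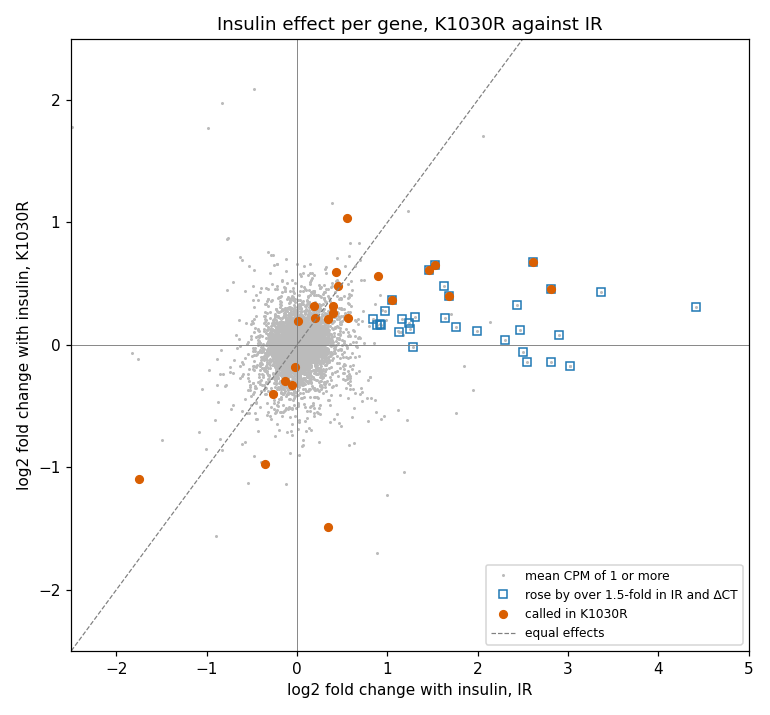
Log2 fold change with insulin in K1030R (vertical axis) against IR cells (horizontal axis) for 12995 genes with a mean CPM of 1 or more over these 4 groups (grey), with the 31 genes of the list (blue squares) and the 24 called in K1030R cells (orange); 4 genes lie outside the axes. Genes of the list lie far to the right and close to the horizontal line at 0, below the dashed line of equal effects.

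Lists of genes from known pathways were counted in K1030R cells, where 0.11% of all genes tested were called higher. The lists were chosen with earlier results of these data known, so the counts are a description only. Of 30 genes tested from immediate early families, mostly transcription regulators, 2 rose (Egr1 and Ier3). Of 19 genes of ERK and tyrosine kinase feedback 1 rose (Dusp1). Of 20 mRNA decay and stress genes 2 rose (Zfp36l1 and Ppp1r15a), of 24 YAP and TEAD targets 2 rose (Ccn1 and F3), of 28 FOXO targets 1 rose (Sgk1), and of 19 serum-response genes, mostly secreted and matrix proteins, 1 rose, the noncoding RNA Dnm3os. FOXO targets are known to fall when insulin activates AKT. The medians of these 6 lists were 0.026, 0.10, 0.035, 0.013, -0.021 and 0.11 on the log2 scale, against 3.2e-04 over all genes. No member of any list was called lower, where only 0.0454% of all genes tested were called lower.

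In the other lists no gene was called by edgeR's quasi-likelihood test in K1030R cells. At an unadjusted p below 0.05, which 6.08% of all genes passed, 0 of 22 SRF and MRTF cytoskeleton targets, 2 of 8 HES, HEY and ID repressors, 0 of 30 SREBP targets, 0 of 52 insulin signalling components, 5 of 23 NF-kB feedback and cytokine genes, 1 of 17 heat shock genes and 0 of 13 mitochondrially encoded protein genes passed. The smallest p-values belonged to Fhl2 (log2 fold change 0.14) and Actg2 (0.47) of the SRF list, Id3 (0.20) and Hes1 (0.23) of the repressors, and Stard4 (0.06) and Fdps (0.07) of the SREBP list. In the remaining lists they belonged to Slc2a1 (0.09) and Rptor (-0.07) of insulin signalling, the chemokine Cxcl1 (0.26) and Nfkbiz (0.17), Hspb1 (-0.34) and Dnajb1 (0.05) of the heat shock genes, and mt-Nd6 (0.11) and mt-Nd2 (0.11) of the mitochondrial genome. Insr itself had a log2 fold change of -0.06 (adjusted p = 0.96).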

How the data were processed

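RNA-seq libraries of brown preadipocyte lines (9 groups, 26 libraries) were assigned to groups from their titles, and no library was left out. According to the authors' methods, oligo-dT libraries were read as reverse-stranded single ends, cleaned of adapters by fastp, and quantified by kallisto on Ensembl mouse transcripts before summing to genes. The deposited values are the authors' expected counts per gene, neither filtered nor scaled, and their version of each tool is not given in the sources used here.

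Counts were rounded (79.9% of values were whole, with no tolerance) and scaled with TMM factors. The 15402 of 52962 genes that exceeded 0.5 CPM in 4 or more libraries were tested. A quasi-likelihood model (edgeR 4.0.16, R 4.3.3, robust dispersion) had 1 mean per group over all 26 libraries. Insulin effects and their differences between lines were contrasts of this model, called at a Benjamini-Hochberg adjusted p below 0.05, and 95% intervals were taken from its standard errors. The biological coefficient of variation was 4.44% and the median standard error of a K1030R log2 fold change 0.072. The test procedure, but not the calls themselves, was tried on simulated counts with planted changes. Most of the genes that rose in K1030R cells changed by less than the smallest planted fold. Alternatives used glmTreat, limma 3.58.1 and DESeq2 1.42.0, other scalings and filters, and fits without each library. RLE and upper-quartile scaling changed no direction of a named gene in K1030R cells.

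The genes and lists were chosen with earlier results of these data known. Named were all genes called in K1030R cells, the genes of the 31-gene list that were called, had an interval away from 0 or were among its 12 largest in IR cells, and, in lists with no call, the 2 smallest p-values. ENSMUSG00000116458, which carries the same counts as Egr2, was left out of the 31-gene list. Gene positions are from GENCODE on GRCm38, and promoters from RefSeq on GRCm38.p6. Samples with the same replicate number came from no stated shared source, and the main fit did not pair them. Their deviations correlated by 0.128, 0.0226 and 0.0905 in K1030R cells, against -0.182 to 0.101 between different numbers. These few values cannot decide whether the samples were paired, and fits with the replicate number as a block are given below. No libraries of K1030R cells agreed within sampling noise (chi-square per degree of freedom 2.83 to 7.05).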

Additional observations from a re-analysis of the deposited data

Results flagged for a closer look

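The insulin effect of some of the 24 genes called in K1030R cells differed from that in another line by a test of the difference itself (quasi-likelihood test of edgeR, adjusted after Benjamini and Hochberg over all genes, adjusted p below 0.05). K1030R minus IR log2 differences were Dnm3os (-0.85), Dusp1 (-0.87), Ccn1 (-1.94), Egr1 (-2.36), F3 (-0.34), Ppp1r15a (-0.68) and Ier3 (-1.28). K1030R minus ∆CT differences were Dnm3os (-0.82), Dusp1 (-0.77), Ccn1 (-2.21), Gm20045 (-0.90), Egr1 (-3.13), F3 (-0.38), Ppp1r15a (-0.58), Ier3 (-1.50) and ENSMUSG00000116046 (-2.11). K1030R minus JMO differences were Dnm3os (-0.54), Gm20045 (-0.97) and Egr1 (-0.70). All of these were below 0, which for Gm20045 and ENSMUSG00000116046 went with a fall in K1030R cells and no called change in the other line, and for the others with a smaller rise in K1030R cells. ENSMUSG00000116046 had at most 2.01 CPM in any K1030R library, and its log2 fold changes were 0.34 in IR and 0.62 in ∆CT cells. No group held enough libraries for a test of single outlying samples.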

How the results depend on the processing

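Counts are given in the order K1030R, IR, ∆CT and JMO cells, the differences of K1030R from IR, ∆CT and JMO cells, and the 31-gene list in K1030R cells, whose main values were 24, 288, 155, 56, 57, 64, 4 and 6. With no filter on low counts they were 178, 714, 399, 248, 293, 213, 161 and 10, and all 24 K1030R calls were among the 178. With a minimum fold of 1.5 glmTreat gave 0, 34, 33, 6, 19, 20, 0 and 0, and limma TREAT 0, 31, 28, 3, 17, 18, 0 and 0. For the difference from JMO cells 79 genes had an unadjusted p below 0.05 in glmTreat and 33 in limma TREAT, and for the list 1 in glmTreat. A minimum fold of 1.2 left 6 K1030R genes and 3 of the list, and an adjusted p below 0.01 left 14. Of the 215 genes called higher in IR cells, 14 were called in K1030R cells.

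DESeq2 called 25 K1030R genes (20 of the 24), limma voom 22 (22 of the 24) and a fit to the 6 K1030R libraries alone 33 (19 of the 24). With the replicate number as a block the count was 26 over all libraries (23 of the 24) and 43 with only the 6 K1030R libraries (18 of the 24). Same-numbered K1030R libraries were not each most alike.

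Leaving out each of the 26 libraries in turn gave 10 to 30 (K1030R), 131 to 1063 (IR), 100 to 174 (∆CT), 26 to 70 (JMO), 52 to 182, 49 to 68 and 2 to 6 (differences), and 4 to 7 (list). Leaving out a ∆CT insulin library leaves 1 sample, which is assumed to vary like the other groups. The K1030R count moved by over 1.5 times without K1030R basal replicate 2 (12) or 3 (11) or insulin replicate 1 (13) or 3 (10). The count of differences from IR cells moved that far without IR basal replicate 3 (182). Counts moved by over 1.5 times in IR cells without any IR library but insulin replicate 2 (162 without insulin replicate 1, 153 without insulin replicate 3), in ∆CT cells without insulin replicate 1 (100) or 2 (102), and in JMO cells without basal replicate 1 (34) or 2 (29) or insulin replicate 1 (30) or 2 (26). The difference from JMO cells was called for 2 genes without K1030R basal replicate 1, JMO basal replicate 1, JMO insulin replicate 1 or JMO insulin replicate 2. The log2 fold changes of Nr4a1 and Junb, neither called, changed sign: over the fits without 1 K1030R library they ran from -0.20 to 0.067 and from -0.0023 to 0.073, with the opposite sign without basal replicate 1 for Nr4a1 and without insulin replicate 1 for Junb. No called gene changed direction under any alternative. Why the counts moved was not tested, beyond the fewer samples in each fit.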
